A study of Mus musculus with 20 samples.

Results

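Gene deserts are the stretches of the genome that lie far from any gene. The CpGs described here are autosomal, lie in no annotated gene of the mouse genome mm10 (GRCm38, GENCODE M21), are more than 50 kb from the nearest transcription start site (TSS) of a protein-coding gene, and had at least 10 reads in all 20 liver libraries. Of 598055 autosomal CpGs with that coverage, 67262 met the rule, and they fell into 26615 of 154077 bins of 200 bp. Reads were summed within a bin, and the methylation of a bin is the percent of its reads that were methylated. Reduced representation bisulfite sequencing (RRBS) was used, which reads fragments cut out by the enzyme MspI at CCGG and counts each CpG as methylated or unmethylated after bisulfite treatment.

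The liver samples came from wild-type C57BL/6J offspring labelled male, 5 libraries in each of 4 groups. Con offspring came from dams on a control diet without stress, and AME offspring from dams under an adverse maternal environment, which was a Western-style diet before mating and through pregnancy and lactation together with a stressed environment late in pregnancy. The d0 offspring (Con-d0, AME-d0) were taken by C-section, and the d21 offspring (Con-d21, AME-d21) were born naturally, nursed by their dam and fasted before harvest, so that age, birth and fasting cannot be told apart. Diet and stress were always given together, and their effects cannot be told apart either. Each group came from 5 litters, and every sample was whole liver. In total 23248139 to 45769589 reads over CpGs were counted per library, of which 1672775 to 3132613 fell on the desert bins, and the median desert bin had 39 to 75 reads per library. Reads without molecular identifiers are not independent molecules.

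Libraries that stood apart were noted before the comparisons. AME-d21 replicate 4, labelled male, held more X-linked and fewer Y-linked reads than the rest of its group: 2.88 X reads for each 100 on autosomes, where the others held 1.53 to 1.55, and a share on the first 3.5 Mb of Y below that of each of them, which goes against its label. AME-d0 replicates 1 and 3 had the lowest desert methylation of their group, and Con-d0 replicate 5 the highest of its group. The library means and the counts of called bins that these libraries moved are also given without them. AME-d0 replicates 1 and 3 and Con-d0 replicate 5 were named by their desert methylation, the measure compared below. Leaving any of them out brings the d0 means of AME and Con closer by construction, and does not test that difference.

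In mammalian DNA, CpGs outside CpG islands and active regulatory elements are usually methylated by the DNA methyltransferases, and gene deserts with their many retrotransposon copies belong to this methylated background. Deserts also hold distant enhancers, and binding of transcription factors at an enhancer usually goes with low methylation of the CpGs there. The liver at birth is still a site of blood formation, and hepatocytes mature over the following weeks, so that both the cells and their methylomes differ between d0 and d21.

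Desert CpGs differed in sequence from the other autosomal CpGs measured. In CpG islands (500-bp windows with a GC content of 55% or more and an observed to expected ratio of CpGs of 0.65 or more) lay 10.9% of the desert CpGs and 55.5% of the others. In repeat-masked sequence of the reference lay 50.1% of the desert CpGs and 9.50% of the others. A desert CpG had a median of 6 CpGs within 100 bp, against 12 elsewhere, and 42.6% of the desert bins held a single measured CpG. The median distance to a protein-coding TSS was 176257 bp and the longest 2705087 bp. Non-coding genes and pseudogenes lay closer, at a median of 34556.5 bp, and 26277 CpGs (39.1%) were more than 50 kb from the TSS of any annotated gene.

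The sequences of 7 desert bins are shown because the results below turn on them: the bins near Slc25a33 and Snx10 for the rise with age, those near Katnal1 and Ptpn1 for the fall with age, those near Rybp and Cntnap5b for values that lay apart between AME and Con at d0 and at d21 without a call, and that near Morn1 for a bin without methylation. They are written from GRCm38, 5′ to 3′, with the measured CpGs in capitals.
bin nearest Slc25a33, chr4:149856401-149856600, plus strand: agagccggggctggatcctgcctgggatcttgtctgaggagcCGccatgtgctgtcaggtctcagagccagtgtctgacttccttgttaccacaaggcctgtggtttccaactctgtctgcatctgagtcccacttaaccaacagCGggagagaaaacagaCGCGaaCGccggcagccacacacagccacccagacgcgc
bin nearest Snx10, chr6:51592601-51592800, plus strand: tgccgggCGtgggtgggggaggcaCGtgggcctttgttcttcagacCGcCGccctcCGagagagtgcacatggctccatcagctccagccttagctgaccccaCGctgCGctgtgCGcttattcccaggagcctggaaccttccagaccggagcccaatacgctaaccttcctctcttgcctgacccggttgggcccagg
bin nearest Katnal1, chr5:148741401-148741600, plus strand: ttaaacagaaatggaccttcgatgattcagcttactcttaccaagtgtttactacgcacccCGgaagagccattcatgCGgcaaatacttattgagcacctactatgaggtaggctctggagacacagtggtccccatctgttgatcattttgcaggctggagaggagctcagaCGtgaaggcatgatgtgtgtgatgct
bin nearest Ptpn1, chr2:167853601-167853800, plus strand: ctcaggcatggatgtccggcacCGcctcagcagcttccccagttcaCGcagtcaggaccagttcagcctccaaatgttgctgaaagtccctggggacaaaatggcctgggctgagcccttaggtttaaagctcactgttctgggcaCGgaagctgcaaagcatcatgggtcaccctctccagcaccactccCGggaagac
bin nearest Rybp, chr6:100188001-100188200, plus strand: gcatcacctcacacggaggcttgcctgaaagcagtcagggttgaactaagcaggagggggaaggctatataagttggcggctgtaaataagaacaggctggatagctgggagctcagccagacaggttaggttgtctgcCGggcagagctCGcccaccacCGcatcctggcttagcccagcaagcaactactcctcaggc
bin nearest Cntnap5b, chr1:102010001-102010200, plus strand: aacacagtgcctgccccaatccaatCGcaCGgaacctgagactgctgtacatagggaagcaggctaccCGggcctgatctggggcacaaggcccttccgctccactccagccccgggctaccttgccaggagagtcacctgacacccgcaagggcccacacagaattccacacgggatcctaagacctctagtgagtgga
bin nearest Morn1, chr4:155150801-155151000, plus strand: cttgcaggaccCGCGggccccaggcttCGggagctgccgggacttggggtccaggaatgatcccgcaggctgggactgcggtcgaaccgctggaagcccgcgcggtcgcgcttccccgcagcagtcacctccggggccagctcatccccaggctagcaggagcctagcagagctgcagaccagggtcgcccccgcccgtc

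Desert DNA was mostly methylated at birth and more so at d21. The mean over desert bins was 67.5%, 67.5%, 67.8%, 68.3% and 71.4% in Con-d0 replicates 1 to 5. It was 62.6%, 68.6%, 65.7%, 67.5% and 68.8% in AME-d0. At d21 it was 76.3%, 76.7%, 76.7%, 76.7% and 76.8% in Con-d21, and 76.6%, 76.4%, 77.1%, 76.2% and 76.6% in AME-d21. Every d21 library lay above every d0 library of both groups, and the d21 libraries lay within 1 percentage point of each other, whereas AME-d0 replicate 1 and Con-d0 replicate 5 stood apart at d0.

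**Figure D1:**
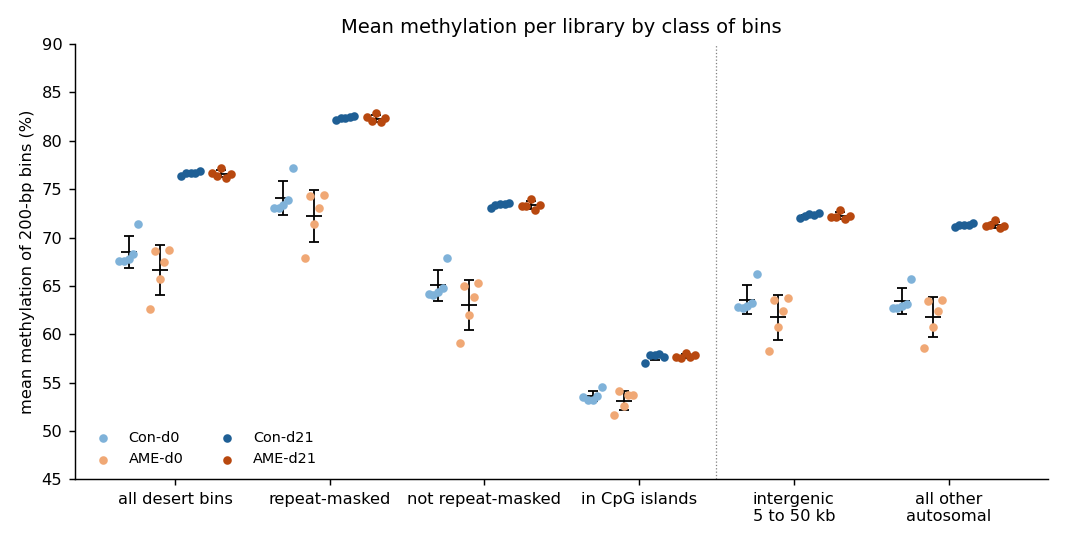
Mean methylation of 200-bp bins in percent (vertical axis) for each library (points, coloured by group) in classes of bins, with the mean and SD of 5 libraries in black; the axis starts at 45%. The first class holds all desert bins, the next 2 the desert bins outside CpG islands by repeat masking, then the desert islands, and the 2 classes right of the dotted line are bins outside the deserts and outside islands. The d21 libraries lie above all d0 libraries in each class.

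In controls the desert mean rose from 68.5% ± 1.63 to 76.6% ± 0.184 (SD, n = 5 each), by 8.13 percentage points (exact two-sided permutation test, p = 0.00794, adjusted over 21 tests p = 0.0278). With 5 libraries in each group no smaller p can be had. In AME offspring it rose from 66.6% ± 2.58 to 76.6% ± 0.360, by 9.97 points (exact permutation p = 0.00794, adjusted p = 0.0278). Without AME-d0 replicates 1 and 3 the rise in AME offspring was 8.31 points (exact permutation p = 0.0179, adjusted p = 0.0536). With 3 libraries against 5 no smaller p can be had, and none of the 21 tests, those on unchanged libraries included, passed in that set, so that the lost call says nothing about the rise. Without Con-d0 replicate 5 the rise in Con was 8.85 points. Without AME-d21 replicate 4 the rise in AME was 10.1 points (exact permutation p = 0.00794, adjusted p = 0.0333). The rise of AME offspring exceeded that of controls by 1.85 points, which was within the spread of the libraries (exact permutation of Con and AME within each age, p = 0.255, adjusted p = 0.446). It was 0.178 points without AME-d0 replicates 1 and 3, 0.833 without AME-d0 replicate 1 alone and 1.13 without Con-d0 replicate 5. As these libraries were named by their desert mean, a smaller excess without them was fixed by that choice. Liver is a mixture of cells, and a change of methylation within cells cannot be told apart from a change in the cells that make up the liver. Promoters of cell type markers moved over the same period: in Con the mean over the 3 of 16 hepatocyte markers with enough CpGs went from 61.3% (59.8% to 62.0% over libraries) to 24.2% (19.3% to 30.5%), that over 6 of 16 haematopoietic and myeloid markers from 18.7% (17.8% to 19.2%) to 32.9% (31.0% to 35.4%), and that over 3 of 8 endothelial markers from 17.5% (12.8% to 22.2%) to 39.7% (38.5% to 41.1%). The 2 of 12 erythroid promoters measured were near 0 at both ages (0.0294% and 0.561%). The part of the cell make-up in the desert values was not tested.

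The whole distribution of desert bins shifted. At d0, 27.8% of the bins had a group mean over 80% in Con and 21.7% in AME, and at d21 60.5% and 60.3% did. Bins between 20% and 80% went from 67.8% to 35.2% of the bins in Con and from 73.6% to 35.4% in AME. Bins under 20% made up 4.43% and 4.70% at d0 and 4.29% in both groups at d21, so that the share of lowly methylated bins was nearly the same. The median SD of a bin between the libraries of a group was 6.15 points in Con-d0, 6.99 in AME-d0, 4.81 in Con-d21 and 5.11 in AME-d21. This SD holds counting error as well as differences between animals. Counting error depends on the level of a bin, and the parts were not separated.

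**Figure D2:**
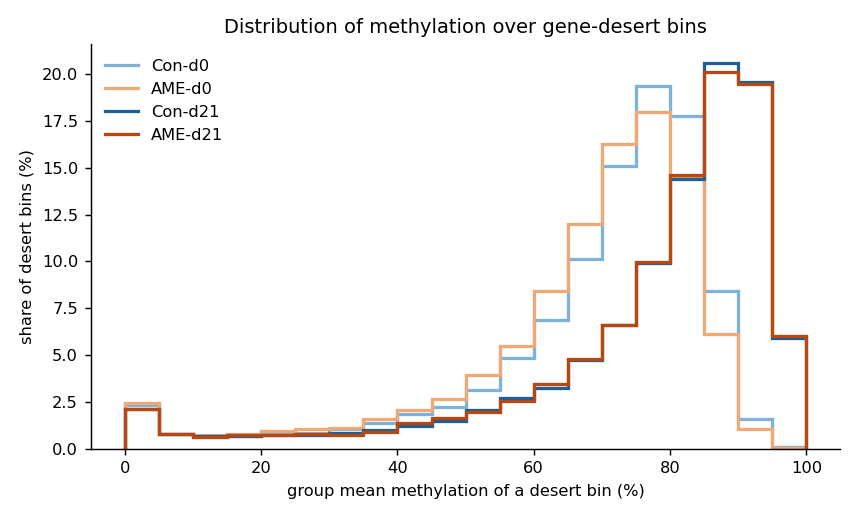
Share of the 26615 desert bins in percent (vertical axis) by the mean methylation of the bin in a group (horizontal axis, steps of 5 percentage points), 1 line per group. The d0 lines have their highest step at 75 to 80% and the d21 lines at 85 to 90%, and the lines of Con and AME lie close together at d21.

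Lowly methylated bins in the deserts were few. In all 4 groups 905 bins (3.40%) had a mean under 20%, and of these 40.7% held a CpG of an island and 2.87% were mostly repeat-masked, against 4.47% and 47.4% of all desert bins. Bins were not fixed at this level: the 1178 bins under 20% in Con-d0 went from a mean of 6.33% to 11.5% in AME, where 361 of them (30.6%) were called higher at d21. The desert islands themselves were split: of the 1189 bins with an island CpG, 32.7% were under 20% and 43.1% over 80% in Con-d0, and 31.7% and 52.7% in Con-d21. The bin near Morn1 (64235 bp upstream of its TSS, 3 CpGs measured within an island) had no methylated read in any of the 20 libraries, at 42 to 98 reads per library, which allows a level of up to 7.14% at the lowest depth and 3.06% at the highest (3 reads, counting error only). At the other end, the 4 CpGs of a repeat-masked bin 116385 bp upstream of Abcg2, a membrane exporter gene, were at 96.4% ± 1.62 in Con-d0, 93.2% ± 2.32 in AME-d0, 96.99% ± 1.79 in Con-d21 and 96.8% ± 1.19 in AME-d21 (SD, n = 5 each). The bin closest to 50% over all libraries lay 131466 bp downstream of the TSS of Zfp618, a zinc finger protein gene, and was at 45.1% ± 5.30, 47.6% ± 8.04, 51.5% ± 4.18 and 55.8% ± 7.73 in the same order.

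Repeat-masked desert CpGs were more methylated than the rest of the deserts and rose by about as much. Outside islands, masked desert sequence went from 74.1% ± 1.76 to 82.4% ± 0.145 in Con (8.29 points) and unmasked sequence from 65.1% ± 1.59 to 73.4% ± 0.212 (8.33 points; SD, n = 5 each). In AME the differences between ages were 10.1 and 10.3 points. Desert islands rose by 4.10 points in Con, from 53.6% ± 0.549 to 57.7% ± 0.373, and by 4.62 points in AME. The differences between ages were larger where CpGs were sparse: 9.42 points in Con with 1 to 2 CpGs within 100 bp (the CpG itself included), 8.48 with 3 to 5, 7.39 with 6 to 10 and 5.48 with 11 or more.

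The bases beside a CpG, which the rule for deserts did not use, went with its level. Desert CpGs with A or T on both sides (WCGW, 7305 CpGs outside islands) were at 63.6% ± 1.58 in Con-d0 and 71.4% ± 0.122 in Con-d21, and those with C or G on both sides (SCGS, 30340 CpGs) at 72.1% ± 1.46 and 79.9% ± 0.223 (SD, n = 5 each). WCGW CpGs lay below SCGS CpGs in 20 of 20 libraries, by 6.67 to 8.74 points. The CpG of the MspI site CCGG has C and G beside it, so that cut sites count among the SCGS CpGs. The part of the cut sites in this gap was not tested. The gap between them did not differ between ages beyond the spread in Con (-8.54 and -8.48 points, exact permutation p = 0.476, adjusted p = 0.625) or in AME (-7.74 and -8.53, exact permutation p = 0.111, adjusted p = 0.259). In AME-d0 it was smallest in replicates 1 and 3, at -6.67 and -6.78 points, with -8.18 to -8.57 in the other 3 libraries. At d0 the gap was 0.799 points smaller in AME than in Con (exact permutation p = 0.0714, adjusted p = 0.188), and 0.120 points smaller without replicates 1 and 3.

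Methylation went up with distance from genes, and the rise with age went down. In Con-d0 the mean was 64.4% ± 1.58 at 50 to 100 kb from a protein-coding TSS, 68.2% ± 1.58 at 100 to 250 kb, 70.2% ± 1.69 at 250 to 500 kb and 73.4% ± 1.75 beyond 500 kb (SD, n = 5 each). In Con-d21 the same classes were at 73.1% ± 0.197, 76.8% ± 0.207, 78.2% ± 0.212 and 79.9% ± 0.166, so that the differences between ages were 8.70, 8.58, 7.997 and 6.59 points. In AME they were 10.5, 10.5, 9.74 and 8.45 points.

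The gap between far and near desert bins was tested per library, outside islands. Bins beyond 250 kb exceeded those at 50 to 100 kb by 5.68 ± 0.207 points in Con-d0 and 4.09 ± 0.0615 in Con-d21, a decrease of the gap by 1.59 points (exact permutation p = 0.00794, adjusted p = 0.0278), and by 5.63 ± 0.338 in AME-d0 and 4.01 ± 0.162 in AME-d21, where the gap fell by 1.62 points (exact permutation p = 0.00794, adjusted p = 0.0278; SD, n = 5 each). In every d21 library of a group the gap was smaller than in every d0 library of that group. Without AME-d0 replicates 1 and 3 the gap in AME fell by 1.75 points, again at the smallest p of 3 libraries against 5. Repeat masking changed with distance too, with 15509 masked and 7440 unmasked CpGs beyond 250 kb and 5628 and 10771 at 50 to 100 kb. Among masked CpGs the level at Con-d0 was 73.3% near and 74.2% far, and among unmasked CpGs it was 62.7% and 68.1%. The difference between ages in Con was smaller far from genes in both, 9.41 and 7.39 points in masked and 8.78 and 7.42 points in unmasked sequence.

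**Figure D3:**
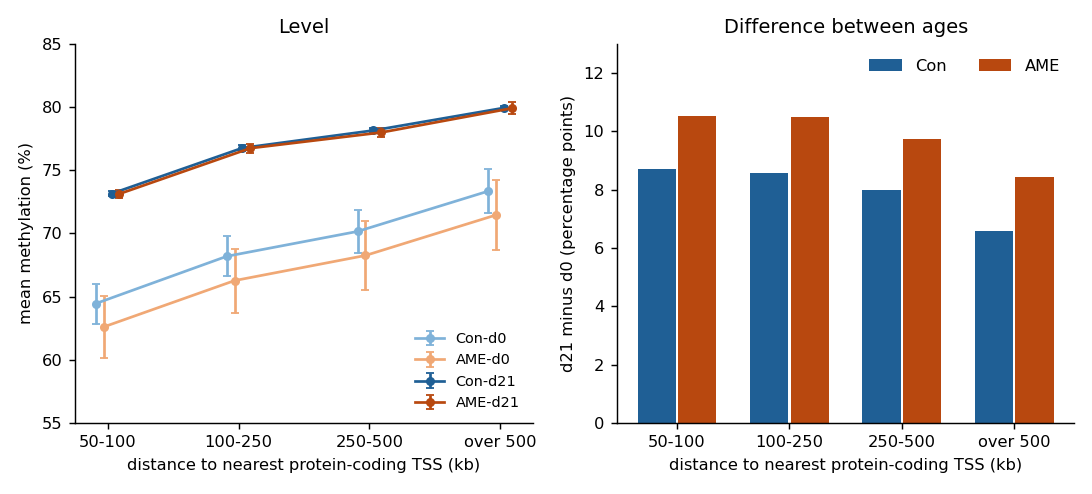
Left, mean methylation of desert bins in percent (vertical axis, from 55%) by distance to the nearest protein-coding TSS in kb, 1 line per group, with the SD of 5 libraries. Right, the difference between the group means of d21 and d0 in percentage points for Con and AME (bars from 0). Levels go up and the differences down with distance, from 8.70 to 6.59 points in Con and from 10.5 to 8.45 points in AME.

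Nothing changed abruptly at the limits that define the deserts. CpGs just inside, at 50 to 55 kb, were at 64.6% in Con-d0 and 73.2% in Con-d21, and intergenic CpGs just outside, at 45 to 50 kb, at 64.4% and 73.4%. Desert CpGs whose lowest library had 10 reads averaged 71.6% and 79.5%, and those left out because their lowest library had 9 reads averaged 71.9% and 79.98%.

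Outside islands, deserts were more methylated than the mean of all other autosomal bins in 20 of 20 libraries, by 4.47 to 6.40 points. They also lay above intergenic bins at 5 to 50 kb in 20 of 20 libraries, by 4.83 to 5.93 points. Exonic bins over 5 kb from a TSS were higher than deserts, at 71.4% against 69.2% in Con-d0 and 78.9% against 77.5% in Con-d21. In AME they were at 69.9% against 67.2% and 78.9% against 77.5%. Intronic bins over 5 kb from a TSS were at 67.5% and 75.9% in Con, so that high methylation was not particular to deserts. In AME the gap to all other bins widened from 5.47 ± 0.584 to 6.18 ± 0.130 points (exact permutation p = 0.00794, adjusted p = 0.0278), and in Con it went from 5.76 ± 0.391 to 6.24 ± 0.0429 (exact permutation p = 0.0476, adjusted p = 0.143; SD, n = 5 each). The gap to the nearer intergenic bins narrowed in Con, from 5.62 ± 0.222 to 5.22 ± 0.0606 points (exact permutation p = 0.00794, adjusted p = 0.0278), and went from 5.50 ± 0.386 to 5.203 ± 0.0996 in AME (exact permutation p = 0.135, adjusted p = 0.283). These changes are small beside the rise shared by all classes. Repeat masking differed too, with 30025 masked and 29910 unmasked CpGs in deserts and 14135 and 30411 in the nearer intergenic class. Among masked CpGs deserts were at 74.1% against 72.5% in Con-d0 and 82.4% against 81.7% in Con-d21. Among unmasked CpGs they were at 65.1% against 59.8% and 73.4% against 68.3%. The part of masking in the gap and its narrowing was not tested. The widening in AME was 0.377 points without AME-d0 replicates 1 and 3, again at the smallest p of 3 libraries against 5, and did not pass without any single AME-d21 library (0.736 points without replicate 4, exact permutation adjusted p = 0.0833). The narrowing in Con did not pass without any single Con-d21 library (exact permutation adjusted p = 0.0556 in each), and with pooled reads it did not pass (-0.140 points, exact permutation adjusted p = 0.222) while the narrowing in AME did (-0.490 points, exact permutation adjusted p = 0.0278).

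Bin by bin, limma was run on the log2 ratio of methylated against unmethylated counts, and called a bin at a Benjamini-Hochberg adjusted p under 0.05 over all 154077 autosomal bins. In Con, 11027 desert bins (41.4%) were higher at d21, where 38.8% of all bins were, and 573 (2.15%) were lower, where 4.06% of all bins were. In AME, 12774 desert bins (48.0%) were higher, against 43.2% of all bins, and 481 (1.81%) were lower, against 3.49%. The median difference over desert bins was 8.15 points in Con and 9.81 in AME, and over all bins 5.85 and 7.19. An island CpG was held by 28.2% of the bins outside the deserts, against 4.47% of desert bins. Outside islands, the mean rose in Con by 8.31 points in deserts and 7.83 in all other bins. It rose by 8.71 in intergenic bins at 5 to 50 kb, 8.39 in intronic and 7.55 in exonic bins over 5 kb from a TSS. In AME these were 10.2, 9.51, 10.5, 10.2 and 8.97 points in the same order. Without AME-d0 replicates 1 and 3, 7795 desert bins (29.3%; 29.5% of all bins) were higher and 406 (1.53%; 3.08%) lower in AME, so that the larger share of higher bins in the deserts was no longer seen. With deserts defined by the TSS of any gene, 38.6% of their bins were higher in Con against 38.8% of all bins, and 46.0% against 43.2% in AME.

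Con and AME animals are different mice, so that their age comparisons share no library. Of the desert bins called higher, 8098 were called in both, which is 73.4% of the Con calls and 63.4% of the AME calls, and no bin called higher in Con was called lower in AME. Of those called lower, 402 were called in both (70.2% of the Con calls and 83.6% of the AME calls), and 1 had the opposite call. For comparison, 48.0% of all desert bins were called higher and 1.81% lower in AME, and 41.4% and 2.15% in Con. The same overlap over all autosomal bins was not counted. At the bins called in Con, the median difference in AME was 12.8 points for those that rose and -18.8 points for those that fell. In 6437 desert bins (24.2%; 24.7% of all bins) every Con-d21 library lay above every Con-d0 library, and in 433 (1.63%; 2.99%) below. In AME the same held in 7180 (27.0%; 26.7% of all bins) and 330 (1.24%; 2.46%).

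The starting level went with the difference. With bins grouped by their mean in Con-d0 and the difference read in AME animals, which did not set the groups, the mean difference between ages was 5.19 points for bins that started under 20%, 13.6 at 20 to 40%, 8.21 at 40 to 60%, 10.7 at 60 to 80% and 9.56 above 80%. In AME 7.80% of the bins that started at 20 to 40% and 6.19% of those at 40 to 60% were called lower, against 1.01% at 60 to 80% and 0.230% above 80%.

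The named bins that gained with age lay in unmasked sequence and went, in group means, from mostly unmethylated to mostly methylated. The bin 82166 bp upstream of Slc25a33, a mitochondrial pyrimidine nucleotide carrier gene, was at 10.8%, 21.3%, 7.64%, 16.5% and 17.5% in Con-d0 and at 74.0%, 83.8%, 75.2%, 72.9% and 90.6% in Con-d21. It was at 6.29%, 10.3%, 6.94%, 18.3% and 27.2% in AME-d0 and at 61.5%, 72.9%, 52.9%, 68.7% and 66.4% in AME-d21. Both groups rose without overlap, and the highest AME-d21 library lay just under the lowest Con-d21 library. The rise in Con was 64.6 points (log2 difference 4.54, SE 0.393, limma adjusted p = 3.01e-06), and at d21 the AME mean lay 14.8 points under that of Con (limma adjusted p = 0.978, unadjusted p = 0.00919), which was not called.

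The bin 68707 bp upstream of Snx10, a sorting nexin gene of endosomes, lies in a CpG island and started almost unmethylated. It was at 1.92%, 2.86%, 4.96%, 4.32% and 5.77% in Con-d0 and at 60.2%, 39.3%, 56.8%, 53.9% and 61.2% in Con-d21. It was at 2.04%, 6.76%, 3.21%, 3.14% and 5.11% in AME-d0 and at 55.7%, 56.2%, 81.2%, 59.4% and 64.1% in AME-d21. No library of d21 came near those of d0, and the rise in AME was 59.3 points (log2 difference 5.39, SE 0.396, limma adjusted p = 6.14e-07). The other bins that the rule named for their rise lay near Exoc6, an exocyst subunit gene (22.3% ± 7.003 to 79.7% ± 7.06 in Con), near Zfp36l2, which encodes an RNA-binding protein of mRNA decay, with 2 bins (30.2% ± 7.32 to 87.1% ± 9.03 and 26.5% ± 6.03 to 81.4% ± 6.39 in Con), and near Jmjd1c, a gene of the histone demethylase family (24.1% ± 13.4 to 79.4% ± 5.89 in AME; SD, n = 5 each). Both bins near Zfp36l2 lie in the same desert.

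The bins that lost most with age were also mostly in unmasked sequence. The bin 187745 bp downstream of the TSS of Katnal1, a microtubule-severing katanin gene, lies 265 bp from the TSS of the long non-coding RNA gene 2210417A02Rik. It was at 65.4%, 74.7%, 53.8%, 71.7% and 73.0% in Con-d0 and at 8.16%, 24.5%, 18.4%, 18.1% and 9.84% in Con-d21. It was at 55.5%, 59.1%, 68.5%, 54.0% and 71.8% in AME-d0 and at 20.3%, 9.56%, 15.96%, 31.97% and 23.2% in AME-d21. Each d21 library lay below each d0 library in both groups, and the fall in Con was -51.9 points (log2 difference -3.53, SE 0.374, limma adjusted p = 1.38e-05).

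The bin 78265 bp downstream of the TSS of Ptpn1, whose phosphatase acts on the insulin receptor, was at 60.6%, 66.4%, 63.6%, 64.7% and 66.5% in Con-d0 and at 13.1%, 20%, 10.6%, 21.4% and 17.7% in Con-d21. It was at 60.7%, 66.3%, 59.0%, 66.4% and 68.2% in AME-d0 and at 24.7%, 18.4%, 27.5%, 19.4% and 18.5% in AME-d21. The ages were far apart in both groups, with -47.8 points in Con (log2 difference -3.15, SE 0.279, limma adjusted p = 3.58e-06) and -42.4 in AME (-2.65, SE 0.276, limma adjusted p = 8.37e-06). Among the other named bins that fell, that near S1pr1, a sphingosine-1-phosphate receptor gene, went from 58.4% ± 5.25 to 15.2% ± 3.17 in Con and from 53.0% ± 5.17 to 9.56% ± 4.81 in AME. That near Foxo1, a transcription factor gene of insulin signalling, went from 80.2% ± 4.36 to 39.1% ± 9.89 and from 74.6% ± 6.39 to 27.2% ± 8.30 (SD, n = 5 each). Those near Inhbb, an inhibin subunit gene, 1600014C23Rik, Sik1, a kinase gene, and Pbx3, a homeobox gene, went from 69.6% to 19.0%, 82.0% to 35.4%, 66.1% to 20.03% and 67.7% to 29.4% in Con. Each of these was called in both Con and AME.

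**Figure D4:**
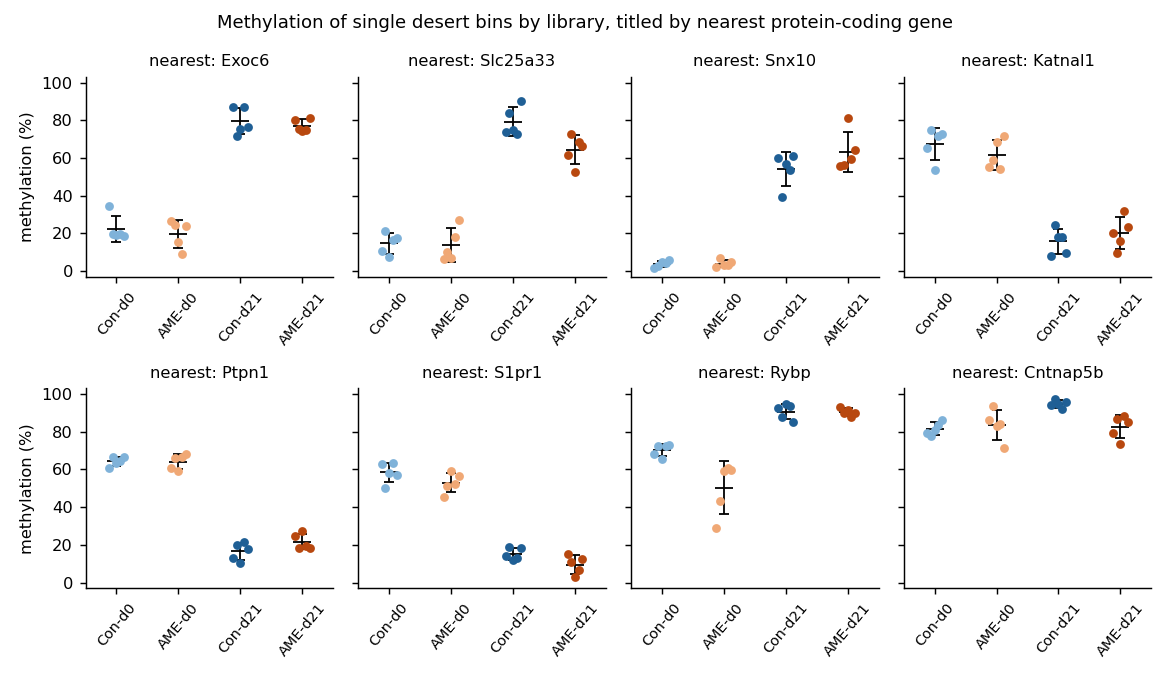
Methylation in percent (vertical axis) of 8 desert bins in each library (points by group on the horizontal axis), with the mean and SD of 5 libraries in black; each panel is titled by the nearest protein-coding gene. The bins near Exoc6, Slc25a33 and Snx10 are higher at d21 in both groups and those near Katnal1, Ptpn1 and S1pr1 lower, whereas the bins near Rybp and Cntnap5b separate AME from Con at 1 age without passing the test.

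The falling bins were seldom repeat-masked. Of the 573 bins that fell in Con, 6.63% were mostly repeat-masked, against 46.4% of those that rose and 47.4% of all desert bins. They started lower, at a mean of 51.3% in Con-d0, and reached 28.2% in Con-d21, where the rising bins went from 70.7% to 85.2%. In AME, which did not choose these bins, they went from 48.5% to 29.4%. The share of these 200-bp bins with a motif was counted on both strands. The FOXA core TGTTTAC was found in 6.46% of the falling bins, 2% of the rising bins, 2.26% of all desert bins and 1.95% of all autosomal bins. The GATA core AGATAAG was found in 5.24%, 1.61%, 1.8% and 1.71% in the same order. For the HNF4 core AAAGTCC the shares were 3.84%, 3.14%, 3.37% and 2.82%, for the C/EBP core TTGCNNAA 11%, 11.6%, 12.1% and 7.71%, for the ETS core AGGAAGT 3.49%, 4.06%, 3.43% and 4.06%, and for the MspI site CCGG 98.6%, 99.4%, 99.4% and 99.3%. Among unmasked bins alone, the FOXA core was in 6.54% of 535 falling, 2.18% of 5912 rising and 2.79% of 13997 desert bins, and the GATA core in 4.86%, 2.32% and 2.51%. In the same bins the HNF4 core was in 3.93%, 3.03% and 3.2%, the C/EBP core in 10.3%, 7.29% and 7.67%, and the ETS core in 3.74%, 5.97% and 4.98%. FOXA and GATA proteins are transcription factors of liver development and of blood and liver cells, and a match of letters is no evidence that a factor was bound. The Katnal1 bin shown above holds a FOXA core and the Ptpn1 bin an HNF4 core and a C/EBP core.

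Between the neighbouring protein-coding genes, the desert bins lay in 2472 stretches. Of these, 395 held at least 20 bins, and in all 395 the mean was higher at d21 than at d0 in Con and in AME, with a median of 7.46 points (1.60 to 26.8) in Con and 9.41 points (2.57 to 28.9) in AME. By chromosome, the difference in Con ranged from 7.17 points on chromosome 12 to 8.89 points on chromosome 10, and in AME from 8.93 to 10.8 points on the same chromosomes. The mean was thus higher at d21 in each of these deserts.

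The desert with the largest rise, picked after its values were seen, lay on chromosome 16 between Hes1, a Notch target gene, and Cpn2, a carboxypeptidase N subunit gene of liver, and held 22 bins. Its mean was 46.0%, 44.1%, 43.7%, 44.5% and 49.2% in Con-d0 and 70.97%, 71.97%, 73.3%, 72.8% and 72.6% in Con-d21. It was 39.3%, 49.3%, 41.97%, 47.04% and 43.2% in AME-d0 and 72.5%, 74.6%, 73.4%, 73.2% and 71.5% in AME-d21. The ages did not overlap, and 18 of its bins were called higher in Con and 0 lower.

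The desert with the smallest rise lay on chromosome 8 between the homeobox genes Irx3 and Irx5, with 23 bins, and was also picked after its values were seen. Its mean was 61.2%, 61.4%, 63.4%, 59.7% and 66.1% in Con-d0 and 62.6%, 63.9%, 65.7%, 63.0% and 64.6% in Con-d21, and the ages overlapped. In AME-d0 it was 57.4%, 65.01%, 61.9%, 61.9% and 62.2%, and in AME-d21 62.5%, 64.6%, 65.6%, 64.8% and 63.8%. Of its bins, 5 were called higher and 4 lower in Con.

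Among the deserts with the most bins, those described here had smaller differences than the median desert. Between Olfm4 and Pcdh17 on chromosome 14 (4.42 Mb, 101 bins) the mean went from 71.7% ± 1.13 to 76.7% ± 0.620 in Con and from 69.7% ± 2.89 to 76.2% ± 1.15 in AME. Between Igfbp7 and Adgrl3 on chromosome 5 (3.61 Mb, 94 bins) it went from 72.2% ± 1.82 to 76.9% ± 1.15 and from 69.5% ± 2.30 to 76.7% ± 0.818 (SD, n = 5 each). In Con 11.9% and 13.8% of their bins were called higher, against 41.4% of all desert bins.

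Desert bins were also grouped by the kind of gene nearest to them. The nearest protein-coding gene was a developmental transcription factor for 858 bins (86 genes), of which 344 (40.1%) were called higher and 34 (3.96%) lower in Con. Their mean was 61.7% in Con-d0 and 69.3% in Con-d21. The 43 bins nearest Sox9, a regulator of cartilage and bile duct cells, went from 59.3% ± 0.912 to 71.1% ± 1.33, with 26 called higher and 1 lower, and the 42 bins nearest Tbx3, a T-box gene of limb and liver development, from 64.5% ± 1.55 to 74.2% ± 0.830, with 25 higher and 1 lower. Synaptic and cell adhesion genes were nearest to 1277 bins (55 genes), of which 315 (24.7%) were higher and 9 (0.705%) lower, at means of 73.3% and 79.7%. The 73 bins nearest Pcdh7, a protocadherin gene, went from 74.8% ± 1.84 to 80.1% ± 0.382 (18 higher, 0 lower) and the 71 nearest Pcdh17 from 73.2% ± 1.56 to 77.5% ± 1.28 (8 higher, 1 lower; SD, n = 5 each). Olfactory and vomeronasal receptor genes were nearest to 172 bins, of which 61 (35.5%) were higher and 1 lower. Liver secreted and metabolic genes were nearest to 114 bins, of which 48 (42.1%) were higher and 1 lower, and the 14 bins nearest Apob, the main protein of very low density lipoprotein, went from 67.7% ± 2.01 to 74.7% ± 2.08. Over all desert bins the shares were 41.4% and 2.15%, and the differences between lists were not tested.

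The AME comparisons asked whether the maternal environment marked the deserts at birth or at weaning. At d0 the desert mean was 1.89 points lower in AME than in Con (66.6% ± 2.58 and 68.5% ± 1.63, SD over 5 libraries; by the exact permutation test p = 0.246, adjusted p = 0.446), and the groups overlapped. Without AME-d0 replicates 1 and 3 the difference was -0.227 points (exact permutation p = 0.911), without AME-d0 replicate 1 alone -0.881 and without Con-d0 replicate 5 -1.18 points. As these libraries were named by their desert mean, a difference closer to none was fixed by that choice, and no conclusion is drawn from it. AME-d0 replicate 1 was the single lowest of its group in 38.9% of the desert bins and replicate 3 in 23.4%, and Con-d0 replicate 5 the single highest of its group in 33.1%. At d21 the means differed by -0.0482 points (76.6% ± 0.360 and 76.6% ± 0.184, exact permutation p = 0.786, adjusted p = 0.786), and without AME-d21 replicate 4 by 0.0538 points.

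No desert bin was called between AME and Con by limma at d0 or at d21, or for the interaction of AME and age, and the percentage called over all autosomal bins was 0.0 in each. The quasi-binomial test also called 0 in each. At an unadjusted limma p under 0.05, 1585 desert bins passed at d0 (5.96% against 5.72% of all bins), 1304 at d21 (4.90% against 5.05%) and 1387 for the interaction (5.21% against 5.12%). The smallest adjusted p of a desert bin was 0.845 at d0, 0.978 at d21 and 0.790 for the interaction. The median difference at d0 was -1.66 points over desert bins and -0.378 over all bins, and without AME-d0 replicates 1 and 3 it was -0.160 over desert bins. Outside islands, the AME difference of the mean at d0 was -1.96 points in deserts and -1.67 in all other bins. It was -1.84 in intergenic bins at 5 to 50 kb, -1.81 in intronic and -1.44 in exonic bins over 5 kb from a TSS. The gap of deserts to all other bins did not differ between AME-d0 and Con-d0 beyond the spread (exact permutation p = 0.460, adjusted p = 0.625). The desert bins with a lower mean in AME were 65.3% at d0 and 50.6% at d21, against 60.3% and 48.1% of all bins.

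**Figure D5:**
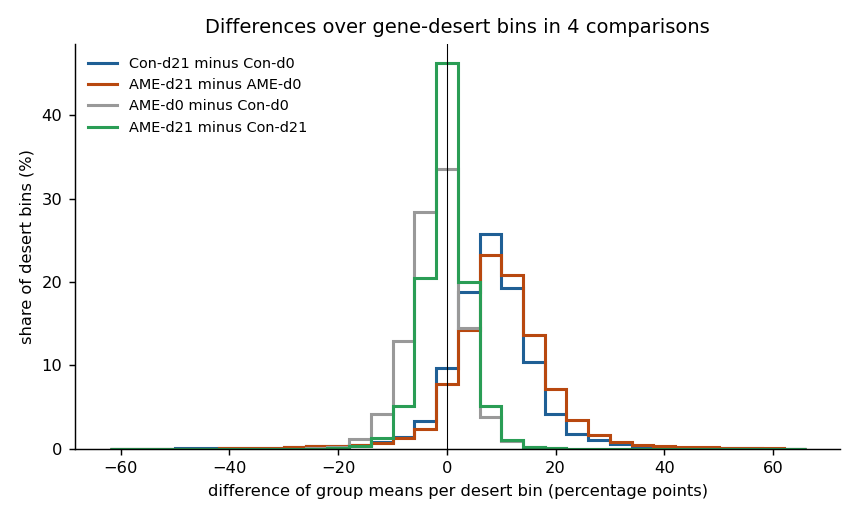
Share of the 26615 desert bins in percent (vertical axis) by the difference between 2 group means in percentage points (horizontal axis, steps of 4 points), 1 line for each of 4 comparisons. The age differences are shifted to the right, with medians of 8.15 and 9.81 points, the AME difference at d0 lies slightly left of 0 (median -1.66) and that at d21 is centred near 0 (median -0.0429).

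Desert bins in which all AME libraries lay on the same side of all Con libraries were about as frequent as over the genome. At d0, 27 bins (0.101%; 0.143% of all bins) were higher and 214 (0.804%; 0.678%) lower in AME. With AME-d0 replicates 1 and 3 left out, which leaves 3 libraries against 5, 404 (1.52%; 1.35% of all bins) were higher and 510 (1.92%; 1.68%) lower. At d21, 90 bins (0.338%; 0.329%) were higher and 98 (0.368%; 0.334%) lower.

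The largest such differences at d0, named by the rule and not called, are given as values. The bin 99324 bp downstream of the TSS of Rybp, a gene of a Polycomb complex, was at 68.5%, 72.7%, 65.7%, 72.3% and 72.8% in Con-d0 and at 28.9%, 43.4%, 59.1%, 60.7% and 59.8% in AME-d0. AME-d0 replicates 1 and 2 were far below the others, and without replicates 1 and 3 the AME-d0 mean was 54.6% in place of 50.4% ± 13.97. At d21 it was at 92.6%, 87.9%, 94.5%, 93.7% and 85.1% in Con and at 93.1%, 89.9%, 91.6%, 87.9% and 90.2% in AME, where the groups overlapped. The difference at d0 was -20.03 points (log2 difference -1.22, SE 0.358, limma adjusted p = 0.845). Bins near Ptchd4 (69.6% ± 4.99 in Con-d0, 53.6% ± 8.18 in AME-d0) and Golga7 (32.6% ± 11.4 and 18.5% ± 5.16) were also lower in AME-d0. Those higher in AME-d0 lay near Tmem45b (64.1% ± 2.31 and 75.4% ± 6.50), Klra1 (74.1% ± 2.85 and 85.1% ± 6.23) and D3Ertd751e (76.0% ± 5.47 and 86.5% ± 2.26; SD, n = 5 each), and without AME-d0 replicates 1 and 3 the AME-d0 means of these 3 were 73.2%, 86.4% and 87.0%.

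At d21 the bin nearest Cntnap5b, a neurexin family gene 2237261 bp away, was at 94.0%, 97.5%, 94.7%, 92.1% and 95.6% in Con-d21 and at 79.4%, 86.7%, 73.7%, 88.6% and 85.5% in AME-d21. In Con-d0 it was at 79.6%, 77.8%, 81.0%, 83.7% and 86.4%, and in AME-d0 at 86.4%, 93.8%, 83.1%, 84.1% and 71.6%. All AME-d21 libraries, replicate 4 included, lay below all Con-d21 libraries, and the Con-d0 libraries below those of Con-d21. The difference at d21 was -12.0 points (log2 difference -1.71, SE 0.337, limma unadjusted p = 0.000158, adjusted p = 0.978), and the bin lies in repeat-masked sequence. Also lower in AME-d21 were the Slc25a33 bin described above and a bin near CK137956 (53.2% ± 3.44 in Con, 40.4% ± 5.49 in AME). Higher in AME-d21 were bins near Gm21863 (34.04% ± 3.11 and 44.9% ± 7.44), Car2, a carbonic anhydrase gene (50.9% ± 2.78 and 61.1% ± 3.59), and Lrfn5, a synaptic adhesion gene (66.7% ± 3.89 and 76.7% ± 2.45; SD, n = 5 each). None of these was called.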

How the data were processed

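Libraries of liver DNA were made by RRBS with MspI and bisulfite. Per the submitters' processing notes, the tools were Bismark, BWA, Trim Galore and FastQC (no versions) and the build mm10. For duplicate removal and strand merging, the steps were not given in the sources used here. For each CpG the deposited tables hold read counts, with the authors' percent of methylated reads. The counts of methylated reads and of all reads were used, and the unmethylated reads were the remainder. CpGs far from CCGG are not measured.

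Counts were summed in 200-bp bins over CpGs that reached 10 reads in each of 20 libraries. Distances, genes and sequences come from GENCODE M21 and GRCm38. Per bin, limma 3.58.1 (R 4.3.3) was run on log2((methylated + 1)/(unmethylated + 1)), with only the groups compared in a fit and Benjamini-Hochberg adjustment over 154077 bins. Library means were compared by exact two-sided permutation tests (scipy 1.17.1), adjusted over 21 tests. Both were tested on simulated data. A quasi-binomial test, other minimum depths, distances, bin sizes and pseudocounts, pooled reads and leaving out libraries were alternatives.

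Named bins held at least 3 CpGs and were the 5 with the largest rise and fall among the called bins without overlap of the groups in each age comparison, the 3 with the largest difference each way among bins whose groups did not overlap for AME, and the highest, lowest and most intermediate mean. Of these and of the deserts with the most bins, 1 each is not reported here. The bins, gene lists and marker lists were chosen with earlier results of these data known. The p-values measure the spread between animals of 5 litters per group. Replicate numbers did not pair the libraries (correlations of same-numbered deviations were at most 0.0311). No 2 libraries of a group agreed within sampling noise.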

Additional observations from a re-analysis of the deposited data

Results flagged for a closer look

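Single libraries that stood far from the other 4 of their group by Dixon's criterion are given here; chance gives about 1 in 20, and 8 of 132 groups of 5 had one. For the desert mean, Con-d0 replicate 5 stood apart at 71.4%. AME-d0 replicate 1 stood apart in the gap between desert and nearer intergenic bins (4.83 points) and in the gap between far and near desert bins (5.03 points). Among the named bins, that near Exoc6 was at 34.8% in Con-d0 replicate 1, and that near Zfp36l2 at 17.2% in Con-d0 replicate 1 and at 79.7% in AME-d21 replicate 2. The bin near Ptchd4 was at 39.1% in AME-d0 replicate 3 and that near Golga7 at 52.8% in Con-d0 replicate 2. The cause of these values was not tested.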

How the results depend on the processing

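Of 570 values recomputed for 31 results under 35 settings, 518 were counted as unchanged. For the tests of library means this meant the same direction and side of the threshold. For counts of called bins it meant a count of similar size, or none called in either. The differences that changed sign were small and none passed the test. At a minimum of 5 reads they were the AME difference at d21 in the gap to nearer intergenic bins (0.0331 points) and in the gap of WCGW to SCGS CpGs (0.0491), and the age difference of the latter in Con (-0.0908, and -0.319 beyond 100 kb). With pooled reads they were the AME differences at d0 in the gap to other bins (0.271), to nearer intergenic bins (0.366) and between far and near bins (0.411), and at d21 to nearer intergenic bins (0.0168). Without AME-d0 replicates 1 and 3 the same 3 gaps at d0 were 0.0446, 0.103 and 0.0715. The cause was not tested.

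Leaving out each library in turn gave an AME difference of the desert mean at d21 of -0.188 to 0.0538 points, and of the gap to nearer intergenic bins of -0.183 to 0.0502 at d0 (0.0502 without AME-d0 replicate 1) and -0.0497 to 0.0104 at d21. The far minus near gap at d0 ranged from -0.144 to 0.0939 (0.0939 without AME-d0 replicate 1), and the AME difference of the WCGW gap at d0, 0.799 with all libraries and 0.120 without AME-d0 replicates 1 and 3, from 0.531 to 1.004, passing without AME-d0 replicate 4 alone. The widening to other bins ranged from 0.409 to 0.639 in Con, passing without Con-d0 replicate 5, and from 0.459 to 0.817 in AME, not passing without any single AME-d21 library. The change of the gap to nearer intergenic bins ranged from -0.470 to -0.327 in Con, not passing without any single Con-d21 library, and from -0.466 to -0.238 in AME, passing without AME-d0 replicate 1.

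The widening to other bins in AME did not pass at 20 reads (0.408), beyond 100 kb (0.355) or with pooled reads (0.648). Without AME-d0 replicates 1 and 3 it was 0.377, the desert rise 8.31 and the far minus near change -1.75, each at the smallest p of 3 libraries against 5, where none of the 21 tests passed. With pooled reads the widening in Con passed (0.952), as did the narrowing in AME (-0.490), but not the narrowing in Con (-0.140), and beyond 100 kb the WCGW gap in AME passed (-1.07). The counts below come from fewer bins or libraries. At 20 reads 4407 of 9615 desert bins were higher (45.8%; 40.5% of all bins) and 284 lower (2.95%; 4.73%) in Con, and 5040 (52.4%; 44.3%) and 235 (2.44%; 4.17%) in AME. With the TSS of any gene, of 10623 bins, they were 4102 (38.6%; 38.8%), 158 (1.49%; 4.06%), 4888 (46.0%; 43.2%) and 139 (1.31%; 3.5%). Beyond 100 kb, of 19318 bins, 353 were lower in Con (1.83%; 4.06%) and 293 in AME (1.52%; 3.5%), and without AME-d0 replicates 1 and 3 7795 of 26615 were higher in AME (29.3%; 29.5%). With the replicate number as a block, 10363 bins were higher (38.9% against 36.9% of all bins) and 543 lower (2.04% against 3.87%) in Con. In AME 12263 were higher (46.1% against 41.8%) and 452 lower (1.7% against 3.38%). In the AME comparisons and the interaction 0 were called, in the deserts and over all bins. Of the libraries, 0, 0, 2 and 2 correlated best with their own number in the 4 comparisons. Depth limits single bins, with a median of 39 to 75 reads.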
